A study of Mus musculus with 6 samples.

Results

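Genes of the BCL2 family, which set the threshold for apoptosis at the mitochondria, were described in mouse liver cancer cells. Members were taken as the probe sets whose platform annotation names 1 of 10 chosen family genes and no other gene. Of these 10 genes 9 were found, with 30 probe sets, among 18193 genes and 34945 such probe sets on the array. They were the pro-survival genes Bcl2, Bcl2l1 and Mcl1, the effector Bak1, and the BH3-only genes Bbc3, Pmaip1, Bid, Bcl2l11 and Bmf. The other effector, Bax, was not analysed here. Total RNA from BL185, a hepatocellular carcinoma line, and from its derivatives M1 and I1 was hybridised to Affymetrix mouse arrays, 2 for each line and 6 in all. M1 and I1 are migratory subpopulations picked from BL185, and their titles call them subclones. Every line was kept in DMEM with fetal bovine serum, and the labels give no genotype or drug for any of them. No unselected subclone is among the samples, so traits that any subclone of BL185 could have and traits tied to migration cannot be told apart. Since the labels do not state how the replicate arrays of a line were obtained, p-values here reflect array-to-array spread that could be purely technical.

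As background, pro-survival members hold the effectors in check at the mitochondrial outer membrane. BH3-only proteins are the stress sensors of the family: they bind the pro-survival proteins or engage the effectors directly. Once free, BAX and BAK1 form pores through which cytochrome c leaves the mitochondria, and this starts the caspase cascade through APAF1 and caspase-9. In the liver, MCL1 and BCL-xL, the main product of Bcl2l1, are known as the members on which hepatocytes depend, and BID links death receptors to the mitochondria. Much of the family's control lies in splicing, phosphorylation and protein turnover, which these arrays do not measure.

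The M1 arrays were less alike than those of BL185 or I1, and this touches every M1 value. Over all probe sets the replicate arrays correlated at r = 0.997 for BL185, 0.994 for I1 and 0.910 for M1, and the SD of log2 signal over probe sets was 1.62 for M1 replicate 1 but 1.83 to 1.97 elsewhere. Genes with a mean log2 signal of at least 10 had a median log2 change of −0.43 in M1 against BL185 (0.00 without M1 replicate 1) and −0.18 in I1, whereas those under 8 had medians of 0.21 (0.04 without M1 replicate 1) and 0.14. The 3′ control probe set for small-subunit ribosomal RNA ranged from 10.11 to 10.14 in BL185, from 10.68 to 12.50 in M1 and from 11.27 to 11.51 in I1. For Actb, the signal at the 3′ end minus that at the 5′ end, a sign of RNA integrity, ranged from 0.88 to 1.08, from 1.24 to 1.43 and from 1.43 to 1.47. Both measures were higher on every M1 and I1 array than on either BL185 array, and their part in the changes given here was not tested. Albumin (Alb), a defining hepatocyte gene, read 7.53 to 8.43 over the 6 arrays, near the array medians of 7.87 to 8.11. The ductal and progenitor keratin Krt19 read 14.59 to 15.08. Neither list was uniform: Krt7, on the ductal and progenitor list, read 6.80 to 7.42, and the hepatocyte gene Ttr read 8.72 to 9.92. Of 6 hepatocyte markers 2 had means under 8, as had 1 of 5 ductal and progenitor markers. By limma at an adjusted p of 0.05, 2 of 6 leukocyte markers were lower in M1 (Cd68 and Cd53) and 1 in I1 (Cd68). Of 5 ductal and progenitor markers 2 were lower in M1 (Prom1 and Sox9) and 1 in I1 (Prom1). Of 6 hepatocyte markers 1 was lower in M1 (Fgb) and 0 in I1. In I1, Fgb (−1.93, limma adjusted p = 0.0501), Cd53 (−1.46, 0.0766) and Sox9 (−1.35, 0.0996) were lower too but did not pass. By sign alone, 4 of 6 leukocyte and 5 of 6 hepatocyte markers read higher in each line, with 0 of them called. So did 2 of 5 ductal and progenitor markers in M1 and 3 of 5 in I1. Of the 6 endothelial markers 5 read higher in each line, and of the 6 fibroblast markers 6 in M1 and 5 in I1, with 0 called. Of all 18193 genes 10099 read higher in M1 and 10305 in I1. Among the 6164 genes with means under 8 the counts were 5184 and 4694, so these signs are not particular to a cell type.

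No member of the family passed the test over all genes, in either selected line. The fit called 160 genes in M1 and 93 in I1. By limma with Benjamini-Hochberg adjustment over all 18193 genes, 0 of 9 members passed in M1, where 0.879% of all genes passed. In I1 the count was 0 of 9, against 0.511%, and between I1 and M1 it was 0 of 9, against 0%. At an unadjusted p under 0.05 there were 2 of 9 in M1 (15.4% of all genes), 3 of 9 in I1 (11.6%) and 0 of 9 between the selected lines (2.25%). Those in M1 were Pmaip1 and Bbc3, with lower signal than in the parent, and those in I1 were the same pair and Bmf, which had higher signal. All are BH3-only genes. Across the family the median log2 change was −0.24 in M1 (0.15 without M1 replicate 1) and −0.13 in I1, beside 0.07 and 0.06 over all genes. After quantile normalization the family's medians turned to 0.10 and 0.03, beside 0.07 and 0.09 over all genes, so the family as a whole has no settled direction.

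**Figure D1:**
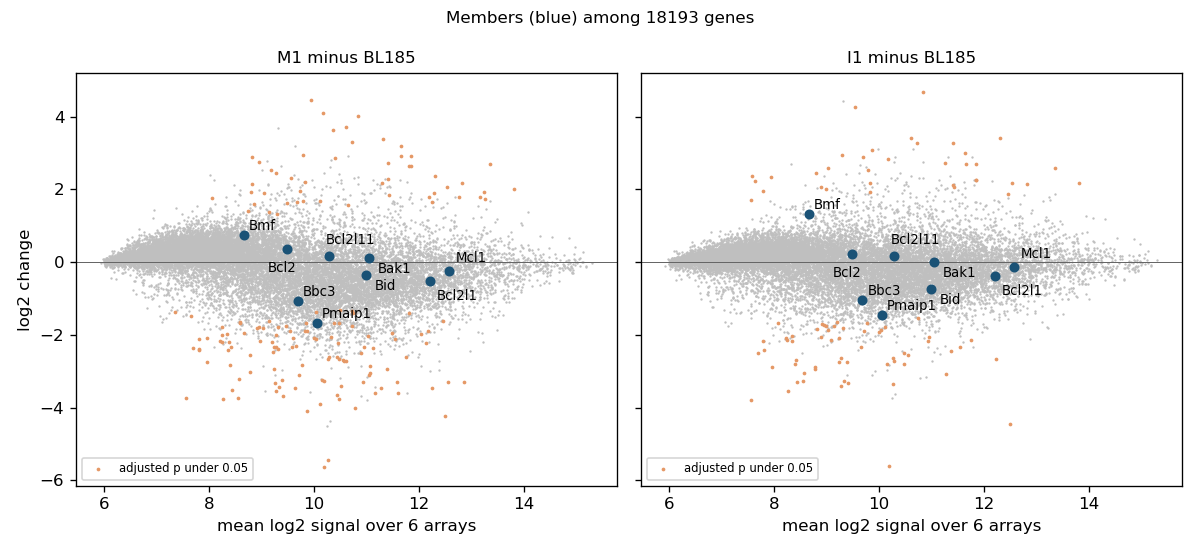
Log2 change against mean log2 signal over the 6 arrays for 18193 genes (grey), with genes past an adjusted p of 0.05 in orange and the 9 measured members in blue, for M1 minus BL185 (left) and I1 minus BL185 (right). Pmaip1 lay at −1.68 and −1.46, Bbc3 at −1.08 and −1.05 and Bmf at 0.75 and 1.32, and no member was among the orange points.

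Pmaip1 encodes NOXA, a BH3-only protein that binds MCL1 and is a transcriptional target of p53. On the log2 scale BL185 read 11.23 and 10.97, M1 9.16 and 9.68, and I1 9.63 and 9.67. Every array of the selected lines lay more than 1 log2 unit below both parent arrays, and the ranges of M1 and I1 overlapped. The log2 change was −1.68 ± 0.24 (SE, 3.21-fold lower) in M1 and −1.46 ± 0.24 (2.74-fold lower) in I1, with limma adjusted p of 0.0609 and 0.0996, so neither passed. In RNA from a whole culture, fewer cells with a transcript and less of it per cell cannot be told apart. Whether Pmaip1 is called depends on the setting. Of 16 other settings 7 can move the size of the change, which ran from −1.95 to −1.26 in M1 and from −1.59 to −1.13 in I1. Over all 16 the limma adjusted p ran from 6.7e-08 to 0.693 and from 4.8e-07 to 0.957. After quantile normalization it was −1.35 in M1 (adjusted p = 0.0108) and −1.13 in I1 (0.0203), and Pmaip1 was the 1 of 9 members called in each line, where 6.46% and 5.39% of all genes were. After cyclic loess it was −1.26 (0.0142) and −1.25 (0.0178), again the 1 member called, where 10.1% and 8.49% of all genes were. Without M1 replicate 1 the change in M1 was −1.42 (adjusted p = 6.2e-06), and with that array left out 24% of all genes were called in M1 and 46.6% in I1.

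Bbc3 encodes PUMA, a p53 target that binds every major pro-survival member. It read 10.53 and 10.26 in the parent, 9.25 and 9.37 in M1, and 9.36 and 9.33 in I1. The 4 arrays of the selected lines were close to each other and below both parent arrays. Bbc3 changed by −1.08 ± 0.18 (SE, 2.11-fold lower) in M1 and by −1.05 ± 0.18 (2.07-fold lower) in I1 on the log2 scale, which did not pass the test (limma adjusted p = 0.0822 and 0.11). Of the 16 other settings 7 can move the size of the change, and under these it ran from −1.22 to −0.71 in M1 and from −1.19 to −0.74 in I1, the smallest sizes being those after quantile normalization (limma adjusted p = 0.0908 and 0.091). With the mean of each gene's probe sets as its value, limma called Pmaip1 (adjusted p = 0.0395) and Bbc3 (0.0473) in M1, 2 of 9 members, where 1.86% of all genes were called. Pmaip1 and Bbc3 were also the 2 of 9 members at least 2-fold lower than in the parent, in M1 (10.6% of all genes) as in I1 (5.82%). At least 2-fold higher were 0 of 9 members in M1 (2.7% of all genes) and 1 of 9, Bmf, in I1 (2.45%). Pmaip1 and Bbc3 had 1 probe set each, so no other probe set bears on their values.

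**Figure D2:**
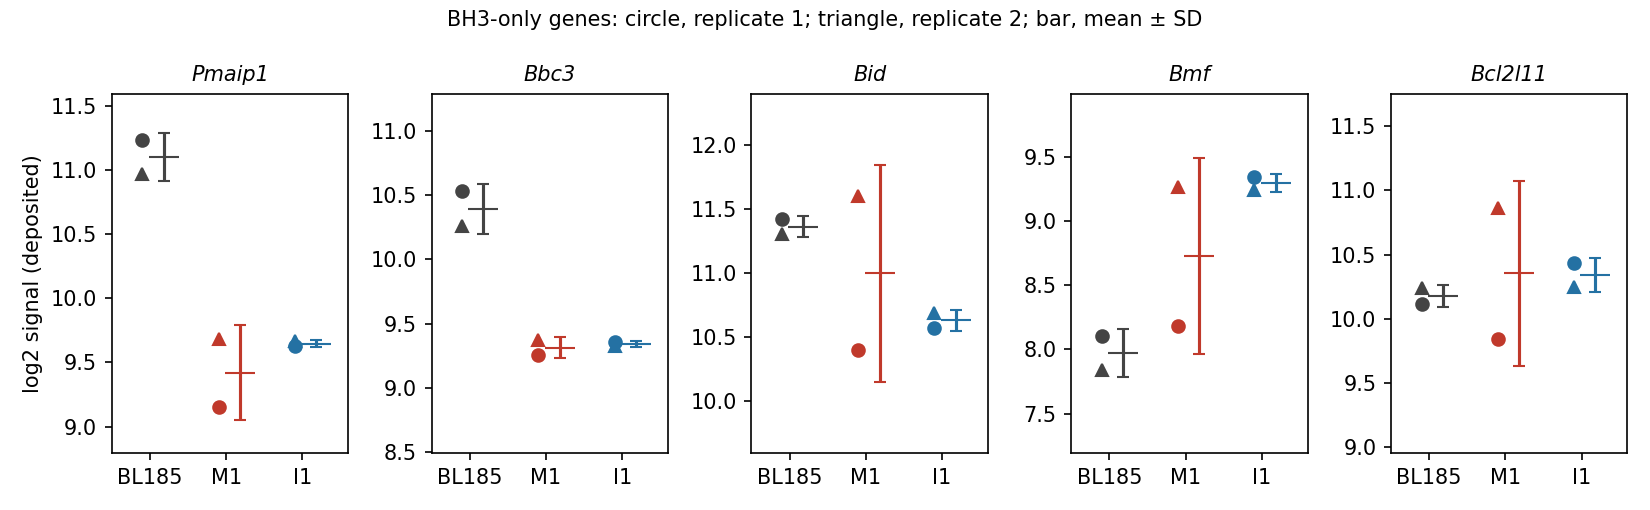
Log2 signal of the 5 BH3-only genes, each by its brightest probe set, on the 2 arrays of BL185, M1 and I1 (circle, replicate 1; triangle, replicate 2; bar with whiskers, mean ± SD, n = 2), every panel spanning the same number of log2 units. Pmaip1 and Bbc3 were lower on all 4 arrays of the selected lines, Bid was lower on both I1 arrays and M1 replicate 1, and Bmf was higher on all 4 arrays, on M1 replicate 1 by little (8.19 against 8.10).

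Bid encodes the BH3-only protein that caspase-8 cleaves after death receptor signals. Its brightest probe set gave 11.42 and 11.30 for BL185, 10.40 and 11.60 for M1, and 10.57 and 10.69 for I1. Both I1 arrays lay below the parent, whereas 1 M1 array lay below and the other above. In I1 the log2 change was −0.73 ± 0.40 (SE) and in M1 −0.36 ± 0.40, with limma adjusted p of 0.596 and 0.591. The M1 change was 0.24 without replicate 1 and 0.10 after quantile normalization, so its sign is not settled, while in I1 the change stayed between −0.79 and −0.46 under the 8 settings that can move it. The next probe set of Bid gave 9.42 and 9.74 for BL185, 8.99 and 9.20 for M1, and 8.24 and 8.70 for I1. On it both selected lines lay below the parent, by −0.48 in M1 and −1.11 in I1, and I1 lay below M1. The dimmest was −0.34 in M1, with overlap, and −0.26 in I1, without. Thus 3 of 3 Bid probe sets had both I1 arrays below both parent arrays, a pattern that 36.5% of all probe sets showed.

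Bmf encodes a BH3-only protein bound to the cytoskeleton and released on loss of attachment. By its brightest probe set BL185 stood at 8.10 and 7.84, M1 at 8.19 and 9.27, and I1 at 9.35 and 9.24. Both I1 arrays and M1 replicate 2 stood more than 1 log2 unit above the parent, and M1 replicate 1 just above it. Bmf was higher by 1.32 ± 0.38 (SE, 2.50-fold) in I1 and by 0.75 ± 0.38 in M1 on the log2 scale, neither past the test (limma adjusted p = 0.261 and 0.407). In I1 the difference lay between 0.78 and 1.45 under the 8 settings that can move it, and in M1 it was 1.29 without replicate 1. The 2 other Bmf probe sets had means under 8, near or below the array medians, where signal may not stand clear of background, and were higher by 0.79 and 0.22 in I1 and by 0.43 and 0.26 in M1. On 3 of 3 probe sets every I1 and every M1 array stood above both parent arrays, as on 38.5% and 25% of all probe sets. Dim genes read higher in both lines in general (medians of 0.21 in M1 and 0.14 in I1). The BL185 mean of the brightest probe set, 7.97, lay near the array medians too. How far this general shift bears on the Bmf probe sets was not tested. The dim ones were therefore not taken as further evidence of direction, and the size of the Bmf difference is not exact.

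Bcl2l11 encodes BIM, which binds all major pro-survival members and can engage the effectors. Its brightest probe set gave 10.11 and 10.24 for BL185, 9.84 and 10.86 for M1, and 10.43 and 10.25 for I1. The M1 arrays fell on either side of the parent, and the I1 arrays lay just above it. Changes were 0.18 ± 0.36 (SE) in M1, or 0.69 without replicate 1, and 0.17 ± 0.36 in I1, with limma adjusted p of 0.76 and 0.855. Of its 5 probe sets, 3 were higher without overlap in I1, 1 was lower and 1 overlapped, and in M1 2 were higher and 3 overlapped. Of all probe sets 38.5% were higher and 36.5% lower in I1, and 25% were higher in M1. The 1 lower and 1 of the higher Bcl2l11 probe sets had means under 8, near or below the array medians.

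The bases before the start of transcription are shown for Bbc3, Bid and Bmf, the BH3-only genes with both I1 arrays clear of the parent on every probe set that the promoter table holds, so that these windows can be set beside the values. Each is the 250 bases upstream of the outermost start in RefSeq annotation, read 5′ to 3′ on the gene's strand in build GRCm38.p6. The Bbc3 window is chr7:16309333-16309582 on the plus strand, that of Bid is chr6:120916825-120917074 on the minus strand and that of Bmf is chr2:118549687-118549936 on the minus strand. Capitals mark matches to the GC box GGGCGG on either strand, the letters bound by SP1-type factors.
Bbc3: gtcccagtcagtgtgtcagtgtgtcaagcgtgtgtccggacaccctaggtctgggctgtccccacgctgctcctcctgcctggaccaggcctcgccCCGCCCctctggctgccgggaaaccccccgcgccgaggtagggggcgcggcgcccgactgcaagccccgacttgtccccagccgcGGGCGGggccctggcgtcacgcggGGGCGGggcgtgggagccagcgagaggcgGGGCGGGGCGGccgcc
Bid: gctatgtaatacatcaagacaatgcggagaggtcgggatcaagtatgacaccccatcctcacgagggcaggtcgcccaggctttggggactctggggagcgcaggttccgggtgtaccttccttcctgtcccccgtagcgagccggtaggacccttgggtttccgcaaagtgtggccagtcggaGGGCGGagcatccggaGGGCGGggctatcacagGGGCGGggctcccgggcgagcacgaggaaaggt
Bmf: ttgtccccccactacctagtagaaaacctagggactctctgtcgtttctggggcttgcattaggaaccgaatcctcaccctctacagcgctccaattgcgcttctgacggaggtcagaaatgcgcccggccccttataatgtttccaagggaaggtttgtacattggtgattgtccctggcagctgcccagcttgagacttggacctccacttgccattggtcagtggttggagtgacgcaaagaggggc
The Bbc3 window held 5 GC boxes, the last pair of them overlapping, the Bid window held 3 and the Bmf window 0. Of 32851 windows of this length in the table, 32.7% held at least 1. In the outermost windows of the other member genes there, Bcl2 held 7, Bcl2l11 3, Bax 2, Mcl1 1, and Bak1 and Bcl2l1 0. Counting every window, 9 of 16 member windows held at least 1, beside the 32.7% of all windows. These came from 6 of the 9 member genes in the table, which lacks Pmaip1. Guanine and cytosine made up 76.4% of the Bbc3 window, 63.6% of the Bid window and 54.0% of the Bmf window. The same 3 windows held 0 matches to the E-box CACGTG (6.02% of all windows), the CHOP and ATF4 element TGATGCAA (0.791%), the FOXO element TGTTTAC (3.17%), the AP-1 element TGANTCA (6.75%), the TATA box TATAAA (12.4%) and the p53 half-site (7.13%), each searched on both strands. Other starts of these genes in the table gave other counts. Of 2 further Bbc3 windows, 1 held 1 GC box and 1 FOXO element, and the other held 7 GC boxes and 1 E-box. Of 2 further Bmf windows, 1 held 1 p53 half-site and the other 0 matches, and Bid had no further window. These are matches of letters in a short window and say nothing of binding.

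Bak1, which encodes the effector that sits in the mitochondrial membrane, did not separate the lines. Its brightest probe set gave 11.16 and 10.87 for BL185, 11.01 and 11.22 for M1, and 11.29 and 10.74 for I1, with overlap throughout. It differed from the parent by 0.10 ± 0.26 (SE) in M1 and by 0.00 ± 0.26 in I1 on the log2 scale (limma adjusted p = 0.809 and 0.998). After median centring the values were −0.02 and −0.05, and after quantile normalization 0.55 and 0.27. The other Bak1 probe set had a mean under 8 and overlapped in both lines.

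Bcl2, the founding pro-survival member, gave different readings by probe set. On the brightest, BL185 stood at 9.20 and 9.40, M1 at 9.93 and 9.38, and I1 at 9.43 and 9.60. The change was 0.36 ± 0.25 (SE) in M1 and 0.22 ± 0.25 in I1 (limma adjusted p = 0.453 and 0.752). Without M1 replicate 1 the change in M1 was 0.09. On the next, BL185 stood at 9.45 and 9.20, M1 at 8.01 and 9.10, and I1 at 8.74 and 8.99, a change of −0.77 in M1 and −0.46 in I1. The third-brightest gave −0.56 in M1 and −0.41 in I1. The I1 arrays thus lay above the parent on 1 probe set and below it on 4, of which 2 had means under 8, where 38.5% and 36.5% of all probe sets were higher and lower. Averaged over the 5 probe sets the change was −0.19 in M1 and −0.20 in I1, so no direction can be given for Bcl2.

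Bcl2l1 makes BCL-xL and, by alternative splicing, a shorter pro-death form. Its brightest probe set gave 12.54 and 12.50 for BL185, 11.66 and 12.33 for M1, and 12.10 and 12.16 for I1. Every array of the selected lines lay below both parent arrays. The difference was −0.53 ± 0.26 (SE) in M1 and −0.39 ± 0.26 in I1 on the log2 scale, with limma adjusted p of 0.401 and 0.656. Without M1 replicate 1 it was −0.20 in M1, and after quantile normalization it was −0.15 and −0.22. The next 2 probe sets gave −0.38 and −0.33 in M1 and −0.73 and −0.55 in I1, and the dimmest, with a mean under 8, gave 0.28 and 0.25. In I1, 3 of 4 probe sets were therefore lower without overlap, as 36.5% of all probe sets were. Which part of the transcript each probe set reads is not given in the sources used here, so the spliced forms were not told apart.

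Mcl1, which encodes the short-lived protein that NOXA and BIM bind, had 6 probe sets, all bright. The brightest gave 12.70 and 12.68 for BL185, 12.07 and 12.84 for M1, and 12.44 and 12.68 for I1. M1 replicate 1 stood below both parent arrays and M1 replicate 2 above both, on this and on each of the other 5 probe sets, so all 6 overlapped in M1. Changes of −0.24 ± 0.30 (SE) in M1 and −0.13 ± 0.30 in I1 had limma adjusted p of 0.631 and 0.864. The sign turned without M1 replicate 1 (0.15 in M1) and after quantile normalization (0.09 in M1, 0.03 in I1). Over the 6 probe sets the change ran from −0.15 to 0.42 in I1, and 1 was higher, 1 lower and 4 overlapped, where 38.5% of all probe sets were higher and 36.5% lower.

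**Figure D3:**
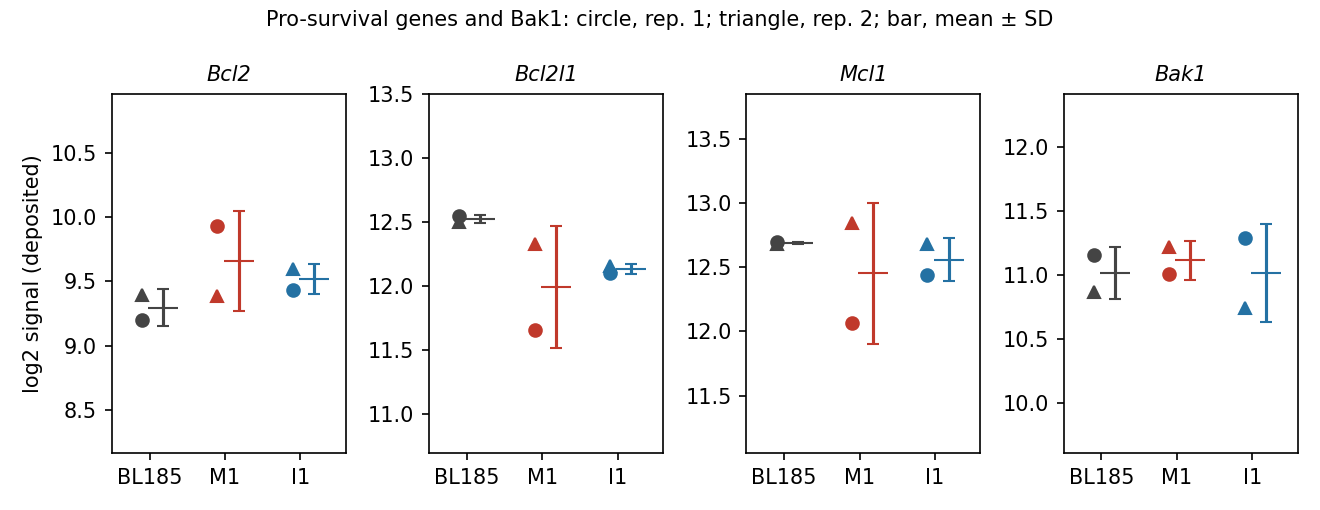
Log2 signal of the pro-survival genes Bcl2, Bcl2l1 and Mcl1 and of the effector Bak1, each by its brightest probe set, on the 2 arrays of BL185, M1 and I1 (circle, replicate 1; triangle, replicate 2; bar with whiskers, mean ± SD, n = 2), every panel spanning the same number of log2 units. Bcl2l1 was lower on all 4 arrays of the selected lines (11.66 to 12.33, against 12.50 and 12.54). M1 replicate 1 stood below M1 replicate 2 for Bcl2l1 and Mcl1 and above it for Bcl2 (9.93 against 9.38).

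Counted by arrays rather than by p-values, 1 of 9 members was higher and 3 were lower in M1 without overlap, where 26.2% and 25.7% of all genes were. In I1, 3 were higher and 5 lower, where 42.6% and 33.5% of all genes were. Over the 30 probe sets, 6 were higher and 7 lower in M1 (25% and 26.1% of all probe sets), and 9 were higher and 14 lower in I1 (38.5% and 36.5%). Fitted on every probe set, 0 of 30 passed an adjusted p of 0.05, where 0.695% did in M1 and 0.492% in I1. Fitted with the arrays of BL185 and I1 alone, limma called 5 of 9 members in I1 (Pmaip1, adjusted p = 4.8e-07; Bmf, 1.2e-06; Bbc3, 1.0e-05; Bid, 1.5e-04; Bcl2l1, 0.011), where 46.6% of all genes were called, and with array weights it called the same 5, where 47% were. Both shares lie near that of the members. Fitted with the arrays of BL185 and M1 alone, it called 0 of 9, where 0% of all genes were called. In M1 it called 4 of 9 without M1 replicate 1 (Bmf and Bcl2l11 higher, Pmaip1 and Bbc3 lower), where 24% of all genes were called, and 6 of 9 without M1 replicate 2, where 70.8% were.

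**Figure D4:**
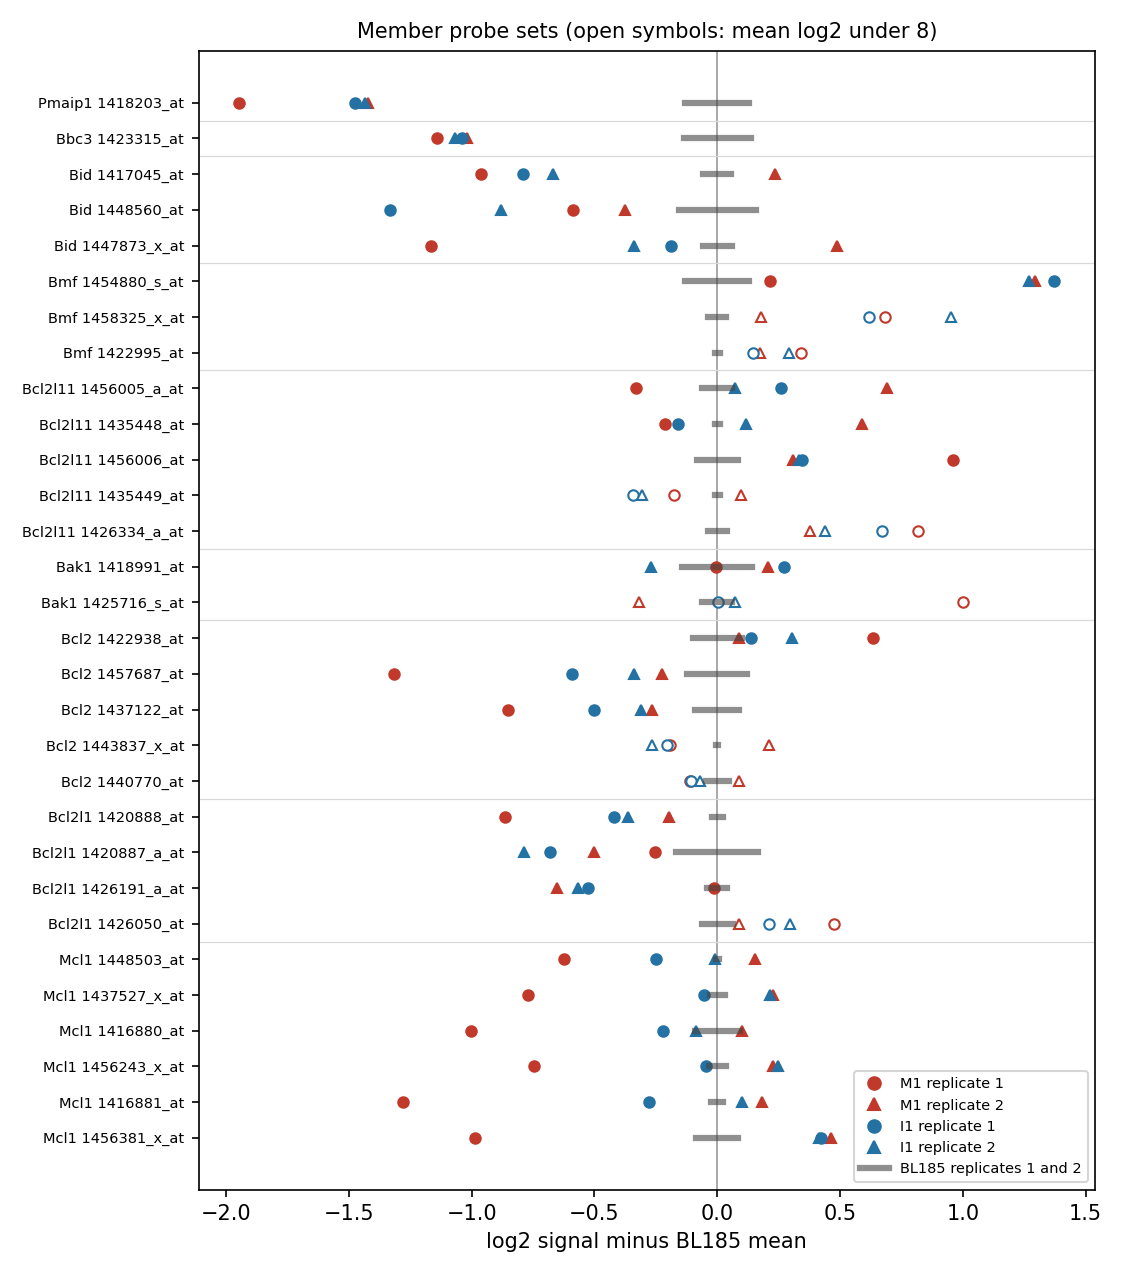
Log2 signal minus the BL185 mean for each of the 30 probe sets, grouped by gene, on the M1 arrays (red) and I1 arrays (blue), with circles for replicate 1, triangles for replicate 2, open symbols for means under 8, and grey bars joining the 2 BL185 arrays. Pmaip1 lay between −1.95 and −1.42, Bcl2 probe sets lay on both sides of 0, and M1 replicate 1 lay left of the other arrays for all 6 Mcl1 probe sets.

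The selected lines were also set against each other, and their arrays overlapped for all 9 members. Without overlap were 0 of 9 higher and 0 of 9 lower in I1, where 8.13% and 7.96% of all genes were. Bmf was 0.57 ± 0.38 (SE) higher in I1 than in M1 on the log2 scale and Bid −0.37 ± 0.40, with limma adjusted p of 1.00 for each. Without M1 replicate 1 these differences were 0.03 and −0.97, and limma called 2 of 9 members, Bid (adjusted p = 5.1e-04) and Bcl2l11 (−0.52, 0.0219), where 20.6% of all genes were called. Without M1 replicate 2 it called 6 of 9, where 57% were. Over the probe sets, 4 of 30 were lower in I1 without overlap and 0 higher, where 10.6% and 6.99% of all probe sets were, and 0 of 30 passed the test, where 0% did.

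Around the family, 61 of 69 other genes of the death pathway were measured. In each selected line limma called 1 higher and 3 lower, where 0.879% and 0.511% of all genes were called. Their median change was −0.47 in M1, −0.01 without M1 replicate 1, and −0.04 in I1, beside 0.07, 0.03 and 0.06 over all genes. Birc5, which encodes survivin, a mitotic protein of the inhibitor of apoptosis family, rose by 2.92 ± 0.26 (SE) in M1 and 2.69 ± 0.26 in I1 on the log2 scale (adjusted p = 0.0235 and 0.037). It was the 1 call among 11 inhibitors of apoptosis and mitochondrial partners. Bcl2l15, a little-studied relative of the family, fell from 11.74 on both parent arrays to 8.29 and 7.85 in M1 and to 8.44 and 8.40 in I1 (limma adjusted p = 0.0121 and 0.0233). It was the 1 call among 5 effector-related genes. Of 15 upstream regulators 12 had a negative change in each line, beside 8094 of all 18193 genes in M1 and 7888 in I1. Among the 6074 genes with a mean log2 of at least 10, 4526 in M1 and 3821 in I1 were negative. How far signal level bears on the count of regulators was not tested. Of these regulators 2 were called, both lower. Ddit3, which encodes the stress factor CHOP, a known inducer of BH3-only genes, fell from 13.18 ± 0.05 to 10.24 ± 0.16 in M1 and 10.73 ± 0.05 in I1 (SD, n = 2, limma adjusted p = 0.0121 and 0.0262). Its other probe set, near the array medians, read 0.13 and 0.23 higher. Mycn, a MYC family factor of the kind that can sensitise cells to apoptosis, fell too, with a log2 change of −4.22 in M1 and −4.45 in I1 (limma adjusted p = 0.0076 and 0.0085), from BL185 values that include the highest in the data, so these sizes are not exact. The next Mycn probe set, near the array medians, changed by only −0.07 in M1 and −0.09 in I1, and the dimmest went the other way (0.70 and 0.65). Over the 16 other settings the adjusted p of these 4 genes reached 0.441 in M1 and 0.639 in I1. Trp53 was not analysed here.

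In the other lists 0 genes were called in M1 or I1 by their brightest probe set. Among 2 other pro-survival genes the largest change in I1 was in Bcl2l2, which encodes BCL-w, at −1.44 ± 0.39 (SE), though its 3 dimmer probe sets gave −0.08 to 0.05. Among 5 other BH3-only and related genes it was in Bad, at 0.49 ± 0.23, and among 6 apoptosome and caspase genes in Casp2, at −0.80 ± 0.42. Among 9 death receptor genes it was in the adaptor Tradd, at 0.83 ± 0.50, whose other probe sets gave 0.41 and 0.00. Among 8 genes of protein turnover it was in Huwe1, which encodes a ubiquitin ligase for MCL1, at −1.21 ± 0.34, and its 4 other probe sets ran from −1.92 to −0.29. The third-brightest changed by −1.69 in M1 and −1.92 in I1. Fitted on every probe set, its unadjusted limma p was 1.8e-04 and 9.7e-05. For Huwe1 the lack of a call thus holds for the brightest probe set only. By the brightest probe set of each, the limma adjusted p of these 5 genes in I1 ran from 0.235 for Bcl2l2 to 0.632 for Tradd.

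The members with the widest range of line means, Pmaip1, Bmf and Bbc3, were matched against 2716 genes whose line means ranged over at least 1 log2 unit. Over the 6 arrays the genes most like Pmaip1 by Pearson correlation were Fbxw4 (r = 0.998), Snhg8 (0.997) and Ms4a8a (0.997). Those most like Bmf were Dkk2 (0.998), Vasn (0.991) and Oma1 (0.990), and those most like Bbc3 were Otop1 (1.00), Tbc1d24 (0.998) and Mcrip2 (0.997). Otop1 read 6.34 to 7.80 and Ms4a8a 7.02 to 8.42 on the 6 arrays, and Dkk2 7.38 to 8.65, around or below the array medians. With 6 arrays in 3 lines such values are common: 432, 71 and 231 of the 2716 genes exceeded r = 0.95 with Pmaip1, Bmf and Bbc3, and the points share the line and array effects described above.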

How the data were processed

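The authors deposited a log2 signal for each probe set and array. RMA and the affy package are named in the submitters' processing notes, without versions or settings. The scale was inferred from the deposited values, 5.80 to 15.4. No detection calls were used, and precision is limited by 6 arrays. Probe sets that name a single gene in GEO's platform annotation, without Affymetrix controls, numbered 34945 of 45101, and 34741 had an Entrez identifier in a RefSeq gene table (GRCm38.p6). A gene was tested by its brightest probe set, by mean over the arrays (18193 genes).

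Line means were fitted with limma 3.58.1 (R 4.3.3, 3 residual and 2.27 prior degrees of freedom). Benjamini-Hochberg adjustment ran over all genes in each contrast, with a threshold of 0.05. SEs come from the 6-array fit and share 1 spread for the lines. The fit was also run on simulated data with independent noise on each array. Those data lacked the narrow signal range of M1 replicate 1, so they cannot vouch for the calls given here. The members, the lists (8 of other pathway genes, 5 of cell type markers) and the tests were chosen with earlier results of these data known. All members are named. From each list of other pathway genes the called ones are named or, without any, the one with the largest I1 change, and Ddit3 and Birc5 in any case. For like patterns the 3 closest genes are named. Other settings, 16 in all, were cyclic loess, quantile normalization, median centring, the mean of probe sets, every probe set, a minimum mean log2 of 8, eBayes with trend and robust, array weights, the replicate block, 2 lines alone, and each array left out. Of columns with sample values, 0 were unused. Figures used matplotlib 3.10.9.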

Additional observations from a re-analysis of the deposited data

How the results depend on the processing

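The count of calls over all genes depended on the setting. In M1 against BL185 it was 160, and 1831 after cyclic loess, 1176 after quantile normalization, 57 after median centring, 338 with probe sets averaged per gene, 243 with every probe set, 312 with array weights, 0 with the 2 lines alone, and 0 to 12879 with 1 array left out. In I1 it was 93, and 1544, 981, 23, 112, 172, 8551, 8481 and 0 to 8481 under the same settings. Between I1 and M1 it was 0, and 51 after cyclic loess, 6 after quantile normalization, 2 with array weights, 1 with a mean log2 of at least 8, and 0 to 10365 with 1 array left out. With 1 array left out the counts in these 3 contrasts were 4369, 8481 and 3746 without M1 replicate 1, 12879, 8481 and 10365 without M1 replicate 2, and 0 when any BL185 or I1 array was the one left out. A minimum mean log2 of 8 (206 in M1, 95 in I1) and eBayes with trend and robust (151 and 90) stayed within 1.5 times. Calls split into higher and lower as 50 and 110 in M1 and 35 and 58 in I1, as 633 and 543, and 608 and 373, after quantile normalization, as 847 and 984, and 765 and 779, after cyclic loess, and as 5 and 52, and 2 and 21, after median centring, which moved the median change of all genes in M1 from 0.07 to −0.06. The cause of these shifts was not tested.

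Of the 9 members, 0 were called in each contrast. In M1 it was 1 after cyclic loess, 1 after quantile normalization, 2 with the mean of probe sets and 0 to 6 with 1 array left out (4 without M1 replicate 1, 6 without M1 replicate 2). In I1 it was 1 after cyclic loess, 1 after quantile normalization, 5 with array weights, 5 with the 2 lines alone and 0 to 5 with 1 array left out, and between I1 and M1 it was 0 to 6. With 1 array left out, the upper end in I1 came when the array left out was from M1, whichever replicate it was. Fits with an array left out or with 2 lines alone have fewer residual degrees of freedom. Those without M1 replicate 1 or 2 take the spread of the single M1 array from BL185 and I1. The fit with array weights keeps all 6 arrays, each M1 array at a weight of 0.11.

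Reversed signs outside the arrays left out were, in M1 against BL185, Bcl2 with the mean of probe sets (−0.19), Mcl1 after cyclic loess (0.11) and quantile normalization (0.095), Bak1 after median centring (−0.024), and Bid after both normalizations (0.093 and 0.097). In I1 they were Bcl2 with the mean of probe sets (−0.20), Mcl1 after both normalizations (0.011 and 0.029) and with the mean of probe sets (0.038), and Bak1 after median centring (−0.050). Between I1 and M1 they were Bcl2l1 (−0.081, −0.063 and, with the mean of probe sets, −0.11), Mcl1 (−0.10 and −0.066) and Bbc3 (−0.14 and −0.035) after both normalizations, and Bcl2l11 after median centring (0.060). With 1 array left out the ranges of the members whose sign turned were, in M1, −0.63 to 0.15 for Mcl1, −0.041 to 0.25 for Bak1, −0.96 to 0.24 for Bid and −0.33 to 0.69 for Bcl2l11, and in I1 −0.27 to 0.27 for Bak1. Between I1 and M1 they were −0.42 to 0.13 for Bcl2, −0.20 to 0.47 for Bcl2l1, −0.28 to 0.50 for Mcl1, −0.37 to 0.17 for Bak1, −0.032 to 0.088 for Bbc3, −0.034 to 0.49 for Pmaip1, −0.97 to 0.23 for Bid and −0.52 to 0.50 for Bcl2l11. Pmaip1, Bbc3, Bcl2l1 and Bmf kept their sign against BL185 in both lines under the settings that can move it, 7 of 16 for Pmaip1 and Bbc3 and 8 of 16 for Bcl2l1 and Bmf.

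With the replicate number as a block the counts over all genes were 38 in M1, 1 in I1 and 0 between I1 and M1, with 0 members called in each. The deviations of same-numbered arrays correlated at −0.13 for BL185 with M1, 0.16 for BL185 with I1 and 0.37 for M1 with I1, so the numbers were not taken as pairs. Signal near the array medians limits the sizes given for Bmf and for all probe sets with means under 8.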
